A study of Mus musculus with 17 samples.

Results

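The 10 heart muscle genes Myh6, Tnnt2, Tnni3, Myl4, Myl7, Actc1, Nppa, Ryr2, Mybpc3 and Sln, were followed through bulk RNA sequencing of mouse lung. These were chosen by gene symbol, by a rule that uses no measured value, with earlier results of these data known, and are 10 of the 54146 genes in the deposited tables. All 10 passed the filter on low counts. By GENCODE M21 (GRCm38) they are protein-coding genes on 8 chromosomes, with Myh6 on chromosome 14 at 54941921 to 54966927 (minus strand), Tnnt2 on chromosome 1 at 135836354 to 135852260 (plus strand) and Sln on chromosome 9 at 53850164 to 53854560 (plus strand). Myl4 and Myl7 share chromosome 11, at 104550663 to 104595753 and at 5896637 to 5898782, and Actc1 and Mybpc3 share chromosome 2. The series compared Clic4 knockout (KO) with wild-type (WT) mice, and its title places the work in host competence for breast cancer metastasis. The groups were WT at day 0 (4 libraries), KO at day 0 (2), WT at day 14 (6) and KO at day 14 (5). All 17 libraries carry the strain label FVB/6DT1. Day 0 mice were 6 weeks old and day 14 mice 8 weeks, and an effect of age cannot be told apart from that of the day. The labels do not say how the knockout was made, what the mice received between the days, or how the lungs were dissected. The design text gives group sizes that differ from the sample labels, and the labels were followed.

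In rodents, sleeves of cardiac muscle run from the left atrium along the pulmonary veins into the lung, so a lung sample can hold heart muscle cells. These cells contract when calcium released through the ryanodine receptor binds troponin on the thin filament and lets myosin heads pull on actin. Atrial and ventricular muscle use different myosin light chains, and atrial cells also make natriuretic peptide and sarcolipin. A bulk library cannot tell pulmonary vein muscle from atrial tissue left on the lung, and fewer muscle cells from less RNA per cell cannot be told apart either.

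A pair of scales are used below. CPM is a gene's count per 1000000 counts of its library, after TMM scaling, and serves to compare libraries. FPKM, the authors' value per kilobase and per 1000000 fragments, serves to compare genes. Libraries held 20607811 to 35743830 counts. Clic4, the targeted gene, had 924.7 to 1281 CPM in the 10 WT libraries and 301.5 to 399.1 CPM in the 7 KO libraries. KO libraries thus kept part of the Clic4 signal: 34.6% of WT at day 0 and 32.2% at day 14 (edgeR adjusted p = 1.93e-05 and 9.95e-09). Where the labels do not tie libraries to separate animals, p-values measure only the spread between these libraries.

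The 10 genes were all detected in every library, and 6 of them ranked between 449 and 922 of 19557 genes tested by FPKM. Myh6, the alpha myosin heavy chain, had 170.1 ± 42.9 FPKM (SD, n = 17), the highest level of the set. Myl7, the atrial regulatory light chain, followed at 152.3 ± 38.5 FPKM. Actc1, cardiac alpha actin, stood at 144.3 ± 19.1 FPKM, Myl4, the atrial essential light chain, at 141.3 ± 29.6, and Tnnt2, cardiac troponin T, at 131.8 ± 32.9. The order within these 5 was loose: Myl7 exceeded Actc1 in 9 of 17 libraries, and Actc1 exceeded Myl4, and Myl4 exceeded Tnnt2, in 11 of 17. Myh6 exceeded Myl7 in 15 of 17. The next step down held in every library: Tnni3, cardiac troponin I, had 90.43 ± 18.6 FPKM and lay below Tnnt2 in 17 of 17.

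The other 4 genes had lower levels per length. Nppa, the precursor of atrial natriuretic peptide, had 11.04 ± 7.8 FPKM, and Sln, the small inhibitor of the sarcoplasmic reticulum calcium pump, had 10.4 ± 3.07 FPKM (SD, n = 17). They could not be ordered, since Nppa exceeded Sln in 8 of 17 libraries. Mybpc3, cardiac myosin-binding protein C, had 6.674 ± 1.22 FPKM and Ryr2, the cardiac calcium release channel, had 5.308 ± 1.05, near the median of 6.55 FPKM over all genes tested. Of the CPM summed over the 10 genes, which is not per length, Myh6 gave 55.0% and Actc1 13.7%. Nppa was the most variable, with a coefficient of variation of 70.6% over 17 libraries, against 13.3% for Actc1 and 18.3 to 29.5% for the other 8.

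In these libraries the muscle signal carried atrial forms far above ventricular ones. FPKM of Myl7 was 31.0 to 462 times that of Myl2, the regulatory light chain of ventricular and slow skeletal muscle, with a median of 176. For the essential light chains, Myl4 was 15.6 to 33.4 times Myl3 (median 20.8). Irx4, a ventricular transcription factor, had no count in 16 of 17 libraries. The heavy chains did not separate in this way: Myh6 was 1.66 to 2.94 times Myh7, and Myh7 had 59.4 to 98.8 FPKM. Myh6 and Myh7 are near-identical neighbours, so the authors' counting could split reads between them, and both values are uncertain. In CPM, which is not per length, Myh6 averaged 747 and Myh7 134 over the 17 libraries. Across these libraries Myh7 followed the mean of the heart muscle set weakly (Pearson's r = 0.194). The r of Myh6, which is part of that mean, was 0.838. How far shared reads shaped these values was not tested. Among genes singled out after their values were seen, Nkx2-5, a cardiac transcription factor, averaged 0.400 FPKM. Bmp10, a growth factor of the right atrium, averaged 0.0153 FPKM and had no count in 8 of 17 libraries.

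**Figure D1:**
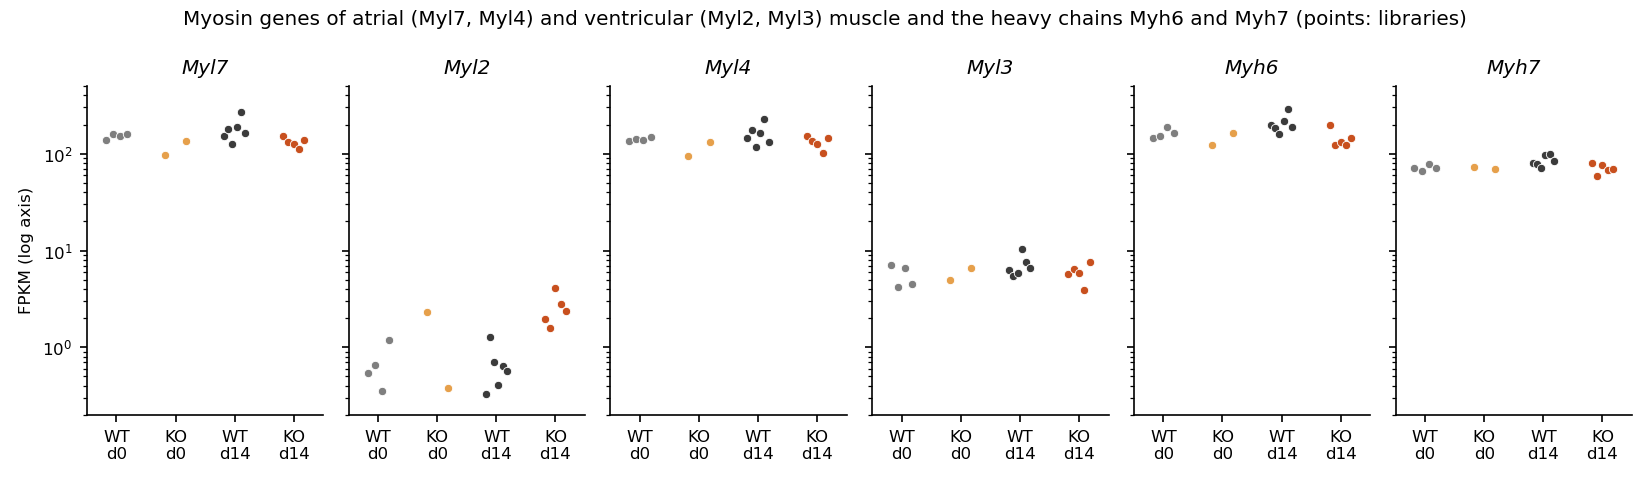
FPKM on a log axis of 6 myosin genes in each of 17 libraries (points), by group. Myl7 and Myl4 lie at 94.32 FPKM or above and Myl2 and Myl3 at 10.4 FPKM or below in every library, while Myh6 and Myh7 lie within a factor of 2.94 of each other.

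The comparison of KO with WT at day 14 asks whether the heart muscle signal differed with the loss of Clic4 at that day. None of the 10 genes passed the test (edgeR quasi-likelihood, adjusted p under 0.05 over all genes), in a comparison that called 0.107% of the genes tested. At an unadjusted p under 0.05, 5 of the 10 were lower in KO and 0 were higher, against 4.03% of all genes lower and 4.92% higher. The fitted log2 fold change was negative for 9 of 10, with a median of -0.32, beside a median of 0.00109 over all genes tested. These genes are not separate observations, since 9 of them varied together over the 17 libraries (median Pearson's r of 0.8 between pairs). Counts of the genes therefore carry no test of the set. Summed over the 10 genes, WT libraries had 1583 ± 324 CPM (SD, n = 6) and KO libraries 1178 ± 207 CPM (n = 5). With 1 library left out at a time, 4 to 7 of the genes were under an unadjusted p of 0.05, all lower. Myh6, Myl7, Sln and Tnnt2 were among them each time, Tnni3 was not without WT library 5, KO library 3 or KO library 4 of day 14, and Mybpc3 or Myl4 were added in 3 cases. For none of the 10 genes were the groups free of overlap in CPM, as they were for 0.977% of all genes.

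Tnnt2, the troponin subunit that anchors the complex to tropomyosin, had the lowest p-value of the set at day 14. Its levels in the 5 KO libraries were 105.0, 84.06, 98.99, 78.04 and 90.74 CPM. In WT they ran from 104.0 through a median of 130.9 to 194.1 CPM. Of the KO libraries, 4 lay below every WT library, and the groups overlapped by 1 library. The log2 fold change was -0.58 (SE 0.14), and the edgeR adjusted p was 0.179. With DESeq2 on the same genes the difference passed, at a log2 fold change of -0.59 and an adjusted p of 0.00525, the 1 call on any of the 10 genes under any tool tried. Tnni3, the inhibitory subunit, had 46.62 to 71.16 CPM in KO and 57.26 to 100.4 CPM in WT, with a log2 fold change of -0.36 (SE 0.14, edgeR adjusted p = 0.48). Tnni3 shares exons with Dnaaf3, a gene of cilia assembly on the same strand at 7.22 to 11.4 CPM, so some reads could have gone either way.

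Among the thick filament genes, Myh6 had 846.6, 527.1, 587.3, 509.2 and 596.1 CPM in the KO libraries at day 14. WT libraries had 701.9 at the lowest, 870.7 at the median and 1267 CPM at the highest. Here too 4 of 5 KO libraries lay below every WT library, and KO library 1 lay among the WT values. The log2 fold change was -0.56 (SE 0.17, edgeR adjusted p = 0.348, DESeq2 adjusted p = 0.0503). Myl7 had 44.75 to 60.19 CPM in KO and 52.03 to 110.3 CPM in WT, at -0.46 (SE 0.16, edgeR adjusted p = 0.394). Myl4 and Mybpc3 were nearer to WT, at -0.29 (SE 0.16) and -0.26 (SE 0.14), and neither had an unadjusted p under 0.05.

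On the thin filament, Actc1 did not follow Tnnt2 at day 14. Its KO libraries had 222.6, 197.0, 187.1, 130.3 and 184.7 CPM, and its WT libraries 159.6 to 218.2 CPM with a median of 193.9. The groups overlapped over nearly their whole range, and the log2 fold change was -0.05 (SE 0.12, edgeR adjusted p = 0.939). Set against Actc1 within each library, a ratio chosen after the values were seen and given without a test, Tnnt2 CPM was 0.472, 0.427, 0.529, 0.599 and 0.491 of Actc1 CPM in KO at day 14. In WT at day 14 it was 0.641, 0.630, 0.627, 0.710, 0.889 and 0.790. These groups did not overlap, which held for 1 of the 9 genes set against Actc1 and for 0.327% of all genes tested by the same ratio. At day 0 the ratio was 0.540 to 0.649 in WT and 0.569 and 0.582 in KO, so those groups did overlap. Actc1 has close relatives in Acta1 and Acta2, whose coding sequences are similar, and reads could be shared among them.

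Of the calcium handling genes, Sln was lower in KO at day 14 in the fitted value and Ryr2 was near WT. Sln had 10.97, 8.202, 10.55, 9.80 and 11.87 CPM in KO, and 11.53 to 23.54 CPM with a median of 13.06 in WT. Again 4 of 5 KO libraries lay below every WT library, and the log2 fold change was -0.52 (SE 0.17, edgeR adjusted p = 0.38). Ryr2 averaged 39.98 ± 8.09 CPM over 5 KO libraries and 40.80 ± 8.33 CPM over 6 WT libraries (SD), with a fitted value of -0.03 (SE 0.16). Nppa, the 1 hormone gene of the set, was the 1 gene with a positive value, +0.33 (SE 0.55, edgeR adjusted p = 0.909). Its levels were 6.945, 5.62, 19.82, 5.116 and 11.32 CPM in KO and 2.582 to 19.44 CPM in WT, and the highest library of each group lay far above that group's median of 6.945 or 6.021 CPM.

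**Figure D2:**
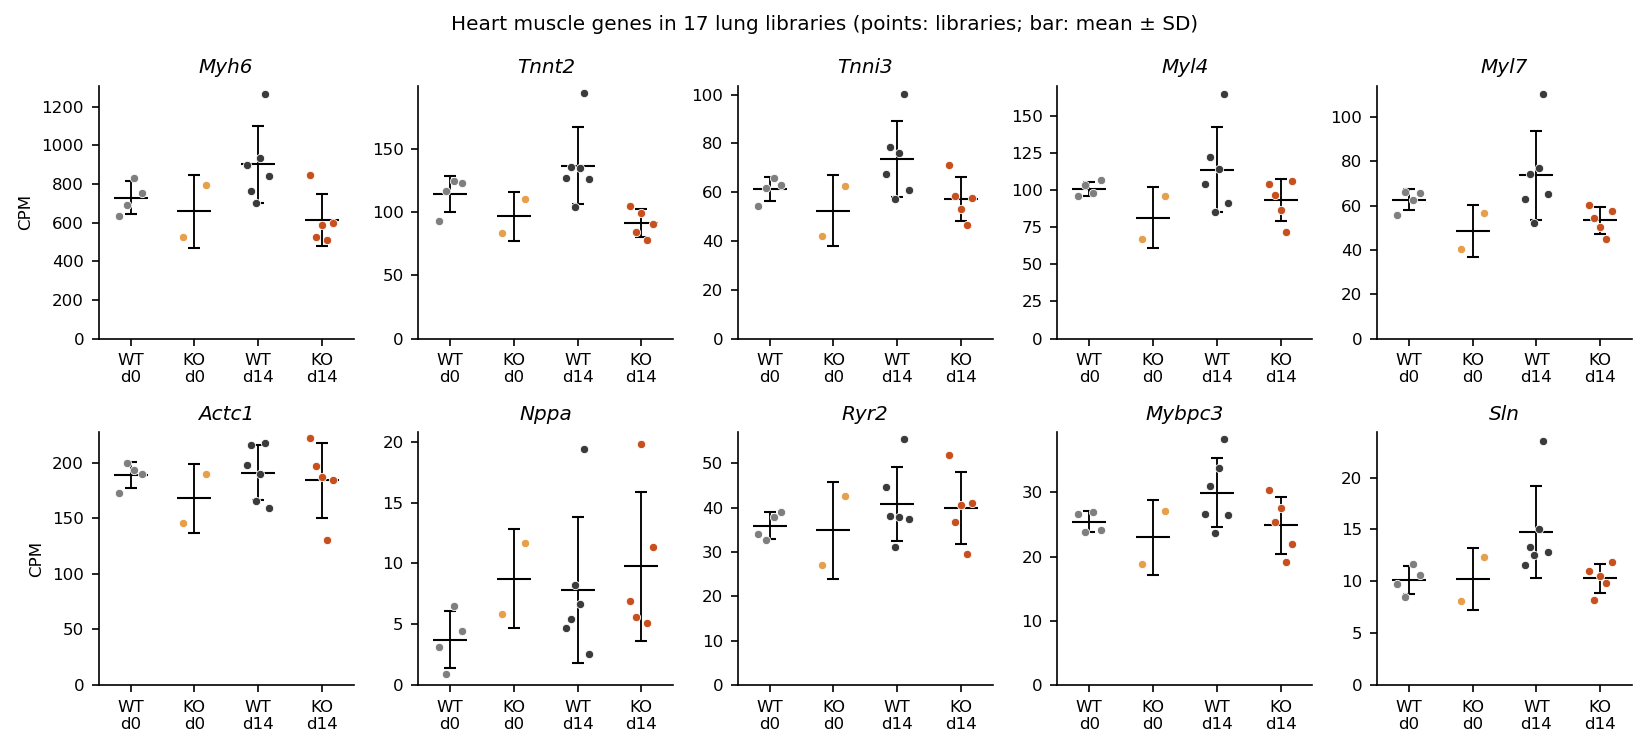
CPM of each of the 10 heart muscle genes in every library (points), by genotype and day (d0, d14), with the group mean and SD (bars). For Myh6, Tnnt2 and Sln, 4 of 5 KO libraries at day 14 lie below every WT library of that day, while Actc1, Ryr2 and Nppa overlap broadly.

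At day 0, in mice of 6 weeks, none of the 10 genes passed the test, beside 0.0256% of all genes called, and 0 had an unadjusted p under 0.05, beside 6.74% of all genes. The fitted log2 fold change of KO over WT was negative for 8 of 10, with a median of -0.16, beside 0.00073 over all genes. The 2 KO libraries differed from each other more than the groups did: KO library 1 had 964.4 CPM summed over the 10 genes and KO library 2 had 1402, while the 4 WT libraries had 1180 to 1459. KO library 1 was the lowest of all 17 libraries for 6 genes. Without it the median became +0.06, and without KO library 2 it became -0.45, so the sign rests on 1 library. Myl4 was the 1 gene whose groups did not overlap in CPM, as did those of 18% of all genes in this comparison with 2 KO libraries. Its KO libraries had 67.09 and 95.85 CPM and its WT libraries 96.29, 103.2, 97.7 and 106.5 CPM, at a log2 fold change of -0.31 (SE 0.22, edgeR adjusted p = 0.827).

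Nppa had the largest fitted value of the set at day 0, at low counts. Its WT libraries had 3.113, 0.8826, 6.502 and 4.406 CPM and its KO libraries 5.858 and 11.65 CPM. The log2 fold change of +1.24 had an SE of 0.78 (edgeR adjusted p = 0.801), and the groups overlapped. Nppa lies on chromosome 4 at 148000722 to 148002079 (GRCm38), 12.7 Mb from Clic4, and shares exon sequence with the antisense gene Gm13054 (0.0313 to 0.591 CPM). Whether the deposited counts used strand is not given in the sources used here. Myl7 had 40.2 and 56.69 CPM in KO against 55.8 to 65.98 CPM in WT, which gave -0.37 (SE 0.23, edgeR adjusted p = 0.8). As ratios to Actc1, Myl7 and Nppa did not overlap between the groups at day 0, beside 16.1% of all genes. The Myl7 ratio was 0.275 and 0.298 in KO and 0.323 to 0.348 in WT, and the Nppa ratio was higher in KO (0.0401 and 0.0613) than in WT (0.00442 to 0.0335).

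**Figure D3:**
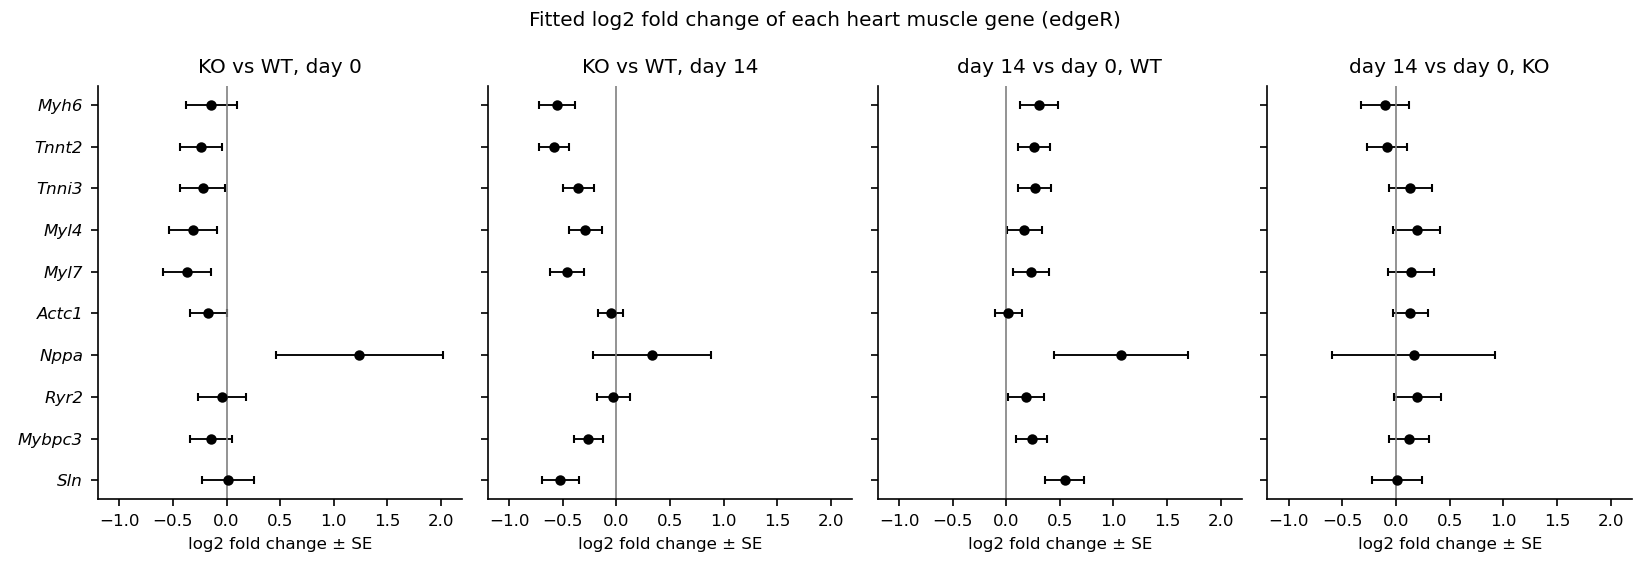
Fitted log2 fold change (points) and SE (bars) of each of the 10 genes from the edgeR model, in 4 comparisons. At day 14 the KO values of 9 genes lie below 0, led by Tnnt2 at -0.58, and the bars of Nppa are the widest in every comparison.

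Between day 0 and day 14 in WT, a contrast that also spans 6 to 8 weeks of age, none of the 10 genes passed the test and 0% of all genes did. At an unadjusted p under 0.05, 1 of 10 was higher at day 14, beside 4.72% of all genes. The fitted values were positive for all 10, with a median of +0.25, beside 0.00164 over all genes. Sln was the 1 gene under that p: its day 0 libraries had 9.734, 8.522, 11.65 and 10.57 CPM and its day 14 libraries 11.53 to 23.54 CPM. The groups overlapped, and the log2 fold change was +0.55 (SE 0.18, edgeR adjusted p = 0.351). WT library 5 of day 14 was the highest of all 17 libraries for 8 of the 10 genes and summed to 2191 CPM. Without it the median was +0.15. This contrast shares its day 14 WT libraries with the comparison of KO and WT at day 14. No gene's groups were free of overlap in CPM, beside 2.58% of all genes.

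In KO, 0 of the 10 genes passed between day 0 and day 14, beside 0% of all genes, and 0 had an unadjusted p under 0.05, beside 9.05% of all genes. The fitted values were positive for 8 of 10, with a median of +0.13, which ran from -0.13 to +0.41 when either KO library of day 0 was left out. Actc1 averaged 168.1 ± 31.0 CPM (SD, n = 2) at day 0 and 184.4 ± 33.7 CPM (n = 5) at day 14, and Myh6 659.0 ± 188 and 613.3 ± 136 CPM. No gene's groups were free of overlap, beside 11.8% of all genes. The test of the difference between the KO effects at the 2 days called 0 of the 10 genes and 0% of all genes, with 0 of 10 at an unadjusted p under 0.05 beside 4.55% of all genes. Its fitted values were largest for Nppa (-0.91, SE 0.96), Sln (-0.54, SE 0.29) and Myh6 (-0.41, SE 0.29), each with an edgeR adjusted p of 0.988. A difference between the days in the KO effect was therefore not shown. DESeq2 also called 0 of the 10 genes at day 0, between the days in WT or KO, and for the interaction.

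Of the 10 genes, 9 varied together from library to library, and Nppa followed them weakly. Over 17 libraries, Pearson's r of log2 CPM between pairs of the other 9 genes had a median of 0.80, from 0.38 to 0.953. Nppa with the other 9 had a median of 0.19. The libraries share depth scaling and tissue sampling, so these values describe the set and carry no test. WT library 5 of day 14 was among the top 3 libraries for all 10 genes. KO library 1 of day 0 was among the bottom 3 for 9 genes, and KO library 4 of day 14 for 8. Without WT library 5 of day 14, the medians were 0.703 and -0.0705. With group means removed, and that library kept, they were 0.796 and 0.452, so the 9 genes varied together within groups as well.

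**Figure D4:**
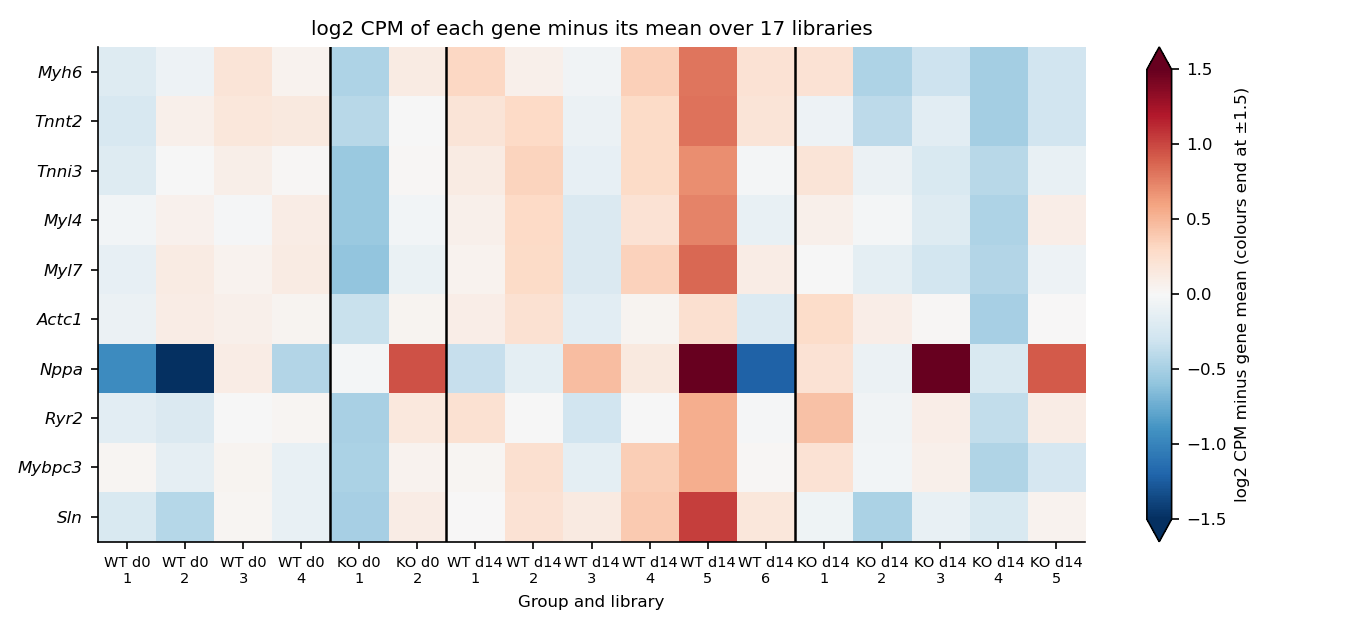
Log2 CPM of each of the 10 genes minus its mean over 17 libraries, by group and library, with colours ending at ±1.5. Columns are mostly of 1 colour: WT library 5 of day 14 is high for every gene, KO library 1 of day 0 and KO library 4 of day 14 are low for most, and the Nppa row departs from the others.

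Because 9 of the genes varied together and Nppa followed them less closely, the sequence before the start of 3 of the 10 is shown: Myl7 and Tnnt2, which had lower fitted values in KO at day 14, and Nppa, whose fitted value was positive. Each is the 250 bases before a start in RefSeq (GRCm38.p6), 5′ to 3′ on the gene's strand, and capitals mark the motif matches found. Motifs were searched on both strands: the CArG box of serum response factor, the MEF2 site, AGATAA as 1 form of the element of GATA factors, CATTCC as the M-CAT element of TEAD factors, and AGGTGT as the element of T-box factors. Other forms of the GATA element were not searched and are not marked. No match shown overlaps another.
Myl7, chr11:5898783-5899032, minus strand: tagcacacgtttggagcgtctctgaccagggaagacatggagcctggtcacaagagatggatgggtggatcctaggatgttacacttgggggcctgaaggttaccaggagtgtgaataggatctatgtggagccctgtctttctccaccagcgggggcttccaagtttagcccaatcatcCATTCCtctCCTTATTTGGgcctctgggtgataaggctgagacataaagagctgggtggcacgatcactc
Tnnt2, chr1:135836084-135836333, plus strand: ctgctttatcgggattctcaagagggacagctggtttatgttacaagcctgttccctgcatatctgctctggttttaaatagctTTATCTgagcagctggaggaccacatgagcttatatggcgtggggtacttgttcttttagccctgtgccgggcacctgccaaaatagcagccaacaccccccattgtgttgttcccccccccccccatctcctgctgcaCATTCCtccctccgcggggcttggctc
Nppa, chr4:148000472-148000721, plus strand: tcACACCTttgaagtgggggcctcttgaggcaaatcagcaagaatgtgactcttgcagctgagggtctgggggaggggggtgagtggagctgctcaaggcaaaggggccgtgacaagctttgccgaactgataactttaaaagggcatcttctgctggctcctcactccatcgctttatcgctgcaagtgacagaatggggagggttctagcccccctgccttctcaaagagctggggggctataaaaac
The Myl7 window held CATTCC at bases -70 to -65 and a CArG box at -61 to -52 from the start. The Tnnt2 window shown held AGATAA, on the other strand, at -166 to -161 and CATTCC at -27 to -22. A further RefSeq window of Tnnt2, at chr1:135836739-135836988, is not shown and held 0 matches. In the Nppa window the 1 match to the motifs searched was a T-box element at -248 to -243. TGATAA, a form that was not searched, also stands in the Myl7 and Nppa windows. RefSeq starts were matched for 9 of the 10 genes, which gave 10 windows. CATTCC was found for 3 of them (Myh6, Myl7 and Tnnt2) and in 12.6% of 32851 promoter windows. The CArG box was found for 2 (Actc1 and Myl7) and in 1.47% of windows. The T-box element was found for 2 and in 11.8%, the MEF2 site for 1 (Mybpc3) and in 2.92%, and AGATAA for 1 and in 9.99%. A match describes the letters and is not a bound site.

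The genes whose log2 CPM ran most like the mean of the set over 17 libraries were also muscle genes. Leading were Cox6a2, a muscle subunit of cytochrome c oxidase (Pearson's r = 0.929), Actn2, alpha-actinin of the Z-disc (0.922), and Eef1a2, the elongation factor of muscle and nerve (0.913). Ldb3 (0.879) and Myoz2 (0.873) are Z-disc proteins, and Pln (0.859) encodes phospholamban, which restrains the calcium pump. Mylk3 (0.854) is the cardiac myosin light chain kinase, Cox7a1 (0.848) another oxidase subunit, and Mybphl (0.847) a myosin-binding protein of atrial muscle. Without WT library 5 of day 14 and KO library 1 of day 0, the r of these genes ran from 0.558 (Mybphl) to 0.845 (Cox6a2). The mean of the set is not scaled by gene, so Nppa weighs most in it. Nppa had an SD of log2 CPM of 1.05, against 0.204 to 0.363 for the other 9. With Spearman's rho in place of r, 5 of the 10 most alike by r were among the 10 most alike again. None of the genes named here passed the test at day 14, where their fitted KO values ran from -0.44 for Myoz2 to -0.135 for Cox7a1. Levels of Myoz2 averaged 20.8 FPKM and those of Cox6a2 27.8 FPKM.

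Beyond the 10 genes, 54 other genes of heart muscle in 6 groups were followed, of which 53 passed the filter on low counts and 0 were called in any of the 5 comparisons. In KO against WT at day 14, 41 of 53 had negative fitted values, with a median of -0.135, and 8 had an unadjusted p under 0.05, all lower, beside 4.03% of all genes lower and 4.92% higher. The sarcomere and Z-disc genes were negative in 15 of 16, with a median of -0.25 and 4 under that p. Tpm1, a tropomyosin shared with smooth muscle (340 CPM), was at -0.04 (SE 0.06), and Ttn, titin (77.4 CPM), at -0.15 (SE 0.15). Calcium handling genes were negative in 6 of 8 (median -0.15), with 1 under that p. Atp2a2, the calcium pump that Sln inhibits, was at -0.25 (SE 0.09, edgeR adjusted p = 0.431), and Cacna1c, a calcium channel also of smooth muscle, at -0.04 (SE 0.07). Conduction and junction genes were negative in 7 of 9 (median -0.08), with 2 under that p. Gja5, the connexin of atrial muscle and arteries, was at -0.01 (SE 0.09) and Pkp2, a desmosome protein, at -0.13 (SE 0.06). Kcnj3 and Kcnj5, singled out after their values were seen, were the 2 under that p. They were at -0.55 (SE 0.18) and -0.45 (SE 0.18), with edgeR adjusted p of 0.377 and 0.454.

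Of the 3 remaining groups, none had a gene called at day 14. Energy supply genes had a median of -0.135 with 0 of 7 under an unadjusted p of 0.05, and Mb, myoglobin, was at +0.17 (SE 0.14) and Fabp3, a fatty acid carrier, at -0.15 (SE 0.16). Hormone and stretch genes had a median of -0.02 over 4 genes tested, with Ankrd1 at -0.19 (SE 0.11) and Hspb7 at +0.14 (SE 0.15). Transcription and splicing genes had a median of -0.06 over 9, with Tbx5 at -0.06 (SE 0.08) and Mef2c at +0.05 (SE 0.06). Several of these genes, Tbx5 and Mef2c among them, are also used by other lung cells. Rbm20, singled out after its values were seen, was the 1 transcription and splicing gene under an unadjusted p of 0.05 at day 14. It was lower in KO, as were 4.03% of all genes at that p. Its log2 fold change was -0.54 (SE 0.19, edgeR adjusted p = 0.42). Myom2, an M-band protein singled out after its values were seen, had 10.82 to 16.68 CPM in KO and 16.71 to 45.06 CPM in WT at day 14, without overlap. Its log2 fold change was -0.82 (SE 0.23, edgeR adjusted p = 0.316, DESeq2 adjusted p = 0.0261). At day 0 the 53 genes had a median of -0.04, with 33 negative and 3 under an unadjusted p of 0.05, beside 6.74% of all genes.

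Among ventricular genes, Myl2, singled out after its values were seen, was higher in KO in fitted value at day 14, with 0.9197, 0.7078, 1.91, 0.9728 and 1.187 CPM in KO and 0.1497 to 0.4976 CPM in WT. The groups did not overlap, and the log2 fold change was +2.05 (SE 0.40), at an edgeR adjusted p of 0.0529 that did not pass. It passed under 8 of 25 other settings, DESeq2 among them (adjusted p = 0.00121). The adjusted p ran from 0.0142 to 0.165 when 1 library was left out. At day 0 the KO libraries had 1.023 and 0.1861 CPM, and the WT libraries 0.1693 to 0.4299. Myh7 and Myl3, the other ventricular genes tested, had fitted values of -0.01 (SE 0.10) and -0.25 (SE 0.20) at day 14.

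Skeletal muscle genes had few counts. The 20 genes of that list summed to 15.46 to 26.15 CPM in 16 libraries and to 56.03 CPM in KO library 5 of day 14. At day 14, 12 of the 14 tested had positive fitted values (median +0.33), 4 had an unadjusted p under 0.05, all higher in KO, beside 4.92% of all genes, and 0 were called. Without KO library 5 of day 14, 8 of 13 tested were positive (median +0.08) and 1 had an unadjusted p under 0.05. Acta1, skeletal alpha actin, had 14.64 CPM in that library and 2.522 to 7.411 CPM in the other 4 KO libraries of day 14. Its log2 fold change was +1.02 (SE 0.34, edgeR adjusted p = 0.394), and +0.54 (SE 0.26) without that library. Mybpc2, fast myosin-binding protein C, was at +0.18 (SE 0.24). Myod1 and Myog, the defining transcription factors, had no count in 16 and 13 of 17 libraries. KO library 5 of day 14 had 1179 CPM of the 10 heart muscle genes, inside the range of the other KO libraries of that day (944.3 to 1510). The part of skeletal muscle RNA in the values of Myl2 was not tested.

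Smooth muscle genes summed to 1259 to 1652 CPM over 10 genes and correlated with the mean of the heart muscle genes at a median r of -0.088. Their fitted KO values were positive in 8 of 10 at day 14 (median +0.18) and 10 of 10 at day 0 (median +0.31), with 0 called. At an unadjusted p under 0.05, 5 were higher and 1 lower at day 14, beside 4.92% and 4.03% of all genes. At day 0, 5 were higher and 0 lower, beside 6.74% of all genes in either direction. Mylk, myosin light chain kinase, was at -0.01 (SE 0.06) and Myh11, the smooth muscle myosin heavy chain, at +0.17 (SE 0.09) at day 14. Heart muscle genes and smooth muscle genes therefore had fitted medians of opposite sign in KO at both days, a difference that was not tested and that at day 0 rests on KO library 1.

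Of tissues that lie beside the pulmonary veins, adipose genes varied most. Their 8 genes summed to 42.49 to 150.2 CPM, highest in KO library 2 of day 0. That library also held more of the heart muscle genes than KO library 1 (1402 against 964.4 CPM), whose adipose sum was 60.45 CPM. The WT libraries of day 0 had adipose sums of 42.49 to 55.89 CPM, with 1180 to 1459 CPM of the heart muscle genes. The median r of adipose genes with the mean of the heart muscle genes, in which Nppa weighs most, was 0.471. KO library 3 of day 14 had 99.12 CPM of adipose genes, 19.82 CPM of Nppa and a heart muscle sum of 1162 CPM. WT library 5 of day 14 had 110.9, 19.44 and 2191 CPM. Other libraries rich in adipose genes had less Nppa. KO library 1 and WT library 3 of day 14 had 108.0 and 98.6 CPM of adipose genes, with 6.945 and 8.239 CPM of Nppa. KO library 2 of day 0, at 150.2 CPM of adipose genes, had 11.65 CPM of Nppa. The part of adipose tissue in the heart muscle values was not tested. Cfd and Cidec, an adipokine and a lipid droplet protein, were at +0.97 (SE 0.37) and +0.65 (SE 0.27) in KO at day 0, with edgeR adjusted p of 0.709 and 0.72. At day 14 they were at +0.06 and -0.07. Of the 8 adipose genes, 6 had an unadjusted p under 0.05 at day 0, all higher in KO, beside 6.74% of all genes. At day 14, 0 of the 8 did. Mesothelial genes, led by Krt19 and Msln, had a median of +0.17 at day 14, ciliated airway genes, led by Foxj1 and Dnah5, of +0.24, and lung epithelial genes, led by Scgb1a1 and Sftpc, of +0.02, with 0 called in each. At an unadjusted p under 0.05, 1, 4 and 0 of the 6 genes in each list were higher, beside 4.92% of all genes. Lower were 0, 0 and 2, beside 4.03%. Cartilage and thymus genes summed to 6.521 to 13.09 and 11.13 to 15.51 CPM, and Col11a2 and Cd1d1 made up most of those sums, at 8.97 and 12.3 CPM. Col2a1 and Dntt, next in those lists, averaged 0.178 and 0.412 CPM.

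**Figure D5:**
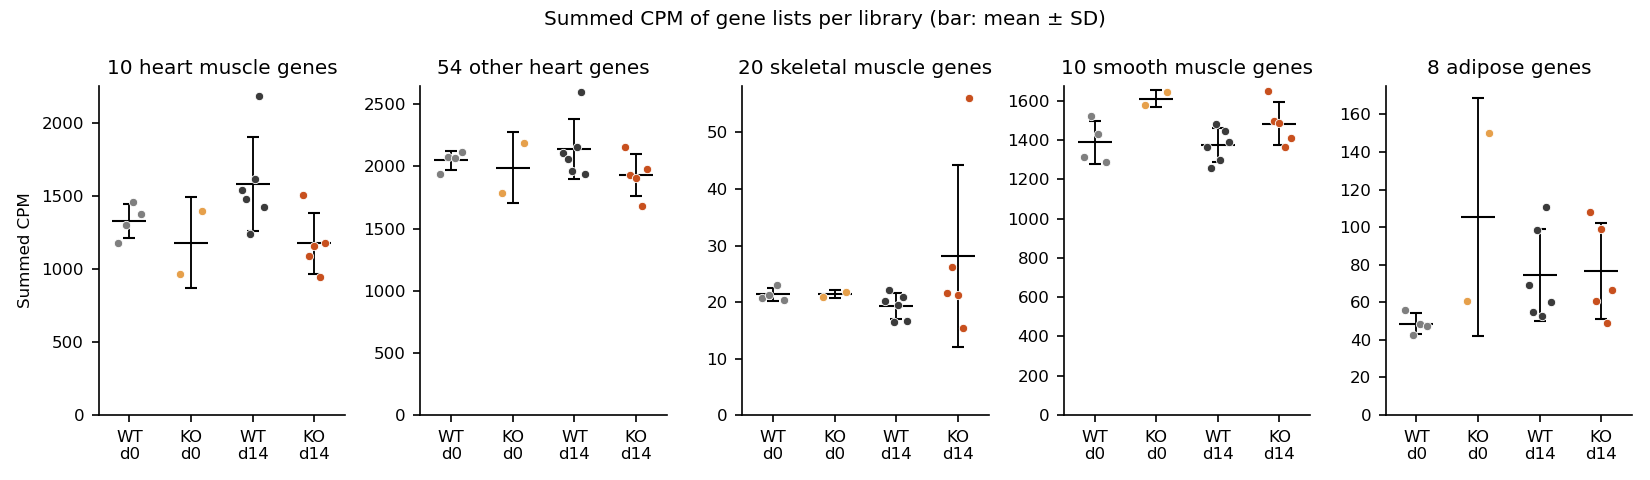
CPM summed over the 10 heart muscle genes, 54 other heart genes, and skeletal muscle, smooth muscle and adipose genes in each library (points), by group, with the mean and SD (bars). Heart muscle sums are highest in WT library 5 of day 14 (2191 CPM), the skeletal muscle sum in KO library 5 of day 14 (56.03 CPM) and the adipose sum in KO library 2 of day 0 (150.2 CPM).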

How the data were processed

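Total RNA of 17 mouse lung libraries was sequenced, with Qiagen RNeasy and Illumina TruSeq v4 chemistry per the labels' protocols. Build mm10, RSEM 1.3.0, STAR 2.5.3 and limma 3.38.3 are named in the submitters' processing notes. The authors deposited expected counts per gene for each library, and FPKM for all libraries in 1 table. The annotation release, strand setting and any filter are not given in the sources used here. Positions are from GENCODE M21 on GRCm38, the assembly of mm10. Gene IDs joined the tables, and 54079 of 54146 were in that annotation.

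Expected counts were rounded. Filtering with filterByExpr by group left 19557 genes, and TMM factors ran from 0.977 to 1.01. A single edgeR 4.0.16 quasi-likelihood model with 4 groups (common biological coefficient of variation 0.152) gave two-sided tests, with Benjamini-Hochberg adjustment over all genes and calls under 0.05. SE was obtained from the fitted log2 fold change and the F statistic. Alternatives were upper-quartile factors, no filter, only the groups compared, limma-voom (limma 3.58.1), DESeq2 1.42.0, limma-trend on log2(FPKM + 1) or log2(FPKM + 0.1), and leaving out each library. Likeness used log2 CPM with a prior count of 2. The code was tested on simulated data. R 4.3.3, pandas 2.3.3 and matplotlib 3.10.9 were used.

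The 10 genes and the 15 other gene lists were chosen with earlier results of these data known. Named besides the 10 were Clic4, per list the 2 genes of highest mean CPM and any called gene, and the 10 genes most like the set, less any not reported here. Others are said to have been singled out. Replicate numbers follow accession order.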

Additional observations from a re-analysis of the deposited data

Results flagged for a closer look

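In 33 checks of a gene within a group of 4 or more libraries, 4 showed 1 library far from the others by Dixon's criterion at the 5% level, and chance gives about 1 in 20. Of these, 3 were the same library, WT library 5 of day 14: it had 194.1 CPM of Tnnt2 (next 135.9), 19.44 CPM of Nppa (next 8.239) and 23.54 CPM of Sln (next 15.05). That library held 25981250 counts. The other was KO library 1 of day 14, with 846.6 CPM of Myh6 beside 596.1 CPM in the next.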

How the results depend on the processing

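Over 25 alternatives, 1221 of 1240 fitted values of the 10 genes kept their call and were counted as the same. Another 18 were counted as moved, each a change of sign in an uncalled value, and none reversed a call. Values that kept their sign were not counted as moved, yet some shifted as far. With 1 library left out, Ryr2 at day 0 went from -0.04 to as low as -0.407, and Mybpc3 from -0.15 to -0.434. The 1 call gained was Tnnt2 at day 14 with DESeq2, which made the count of called genes of the set 1. In 61 cases, those 18 among them, a value that was not called changed sign, so directions of uncalled genes are weak. Counts of all genes called depended on the tool; the causes were not tested. DESeq2 called 26 at day 0 (edgeR 5), 109 at day 14 (edgeR 21), 113 between days in WT, 93 between days in KO and 9 for the interaction (edgeR 0 in each). At day 0, fitting only the groups compared gave 13 and unfiltered log2(FPKM + 1) 17. Between days in WT, no filter gave 5 and limma-voom 1. Between days in KO, only the groups compared gave 2, and log2(FPKM + 1), log2(FPKM + 0.1) and unfiltered log2(FPKM + 1) gave 4, 4 and 26. For the interaction these last 3 gave 4, 3 and 12; fitting only the groups compared was not possible for it, since it needs all 4.

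With 1 library left out, all genes called ranged from 2 to 7 at day 0, 15 to 27 at day 14, 0 to 22 between days in WT (22 without WT library 5 of day 14), 0 to 12 between days in KO (12 without KO library 2 of day 14) and 0 to 1 for the interaction. The median of the 10 genes ranged from -0.446 to 0.0641 at day 0, -0.392 to -0.217 at day 14, 0.148 to 0.318 between days in WT, -0.125 to 0.41 between days in KO and -0.375 to 0.174 for the interaction. The log2 ratio of summed levels ranged from -0.464 to 0.0755 at day 0 and from -0.251 to 0.288 between days in KO. With Spearman's rho, 5 of the 10 most like genes were found again. No paired analysis was possible because the labels give the groups no shared replicate numbers. Nppa had the lowest mean CPM of the 10 genes (7.54), at 28.56 to 632.68 counts a library, beside 197 to 597 for Sln. The part of depth in the spread of Nppa was not tested.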
